A study of Mus musculus with 8 samples.

Results

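The comparison set TTE3 cells held for 24 h at 39 °C, the temperature at which their T-antigen is inactive, against the same cells at the start of that culture. It rests on 4 of the 8 arrays of the series, the 2 arrays of 24 h and the 2 of 0 h, chosen by the times in the sample titles. All 22626 probe sets other than control probe sets were members, of 22690 on the array, and 13576 of them passed a filter on low signal and were tested.

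TTE3 is a line of Sertoli cells from mouse testis whose founder animals were transgenic for the large T-antigen of simian virus 40, in a form that loses its activity with heat. Every sample of both groups carried that transgene, and the groups differed in the hours at 39 °C. Total RNA of each sample was hybridised to 1 Affymetrix mouse 430A array, a 3' expression array. The model is 1 cell line, and the labels do not tell if the 2 samples of a time were grown separately. The p-values below therefore reflect the spread between these particular samples and may cover technical error alone. Heat, hours in culture and the state of the T-antigen changed together between the groups and cannot be told apart. The level of the T-antigen itself was not analysed here.

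Sertoli cells line the seminiferous tubules and nurse germ cells through tight junctions, secreted carrier proteins, lactate and growth factors, and they stop dividing when they mature. The large T-antigen of simian virus 40 drives division by binding p53 and the retinoblastoma proteins, which release the cell cycle when bound. Cells freed of it can take up p53 signalling again, whose targets include inhibitors of cyclin-dependent kinases. Growing cells spend much of their transcription on ribosome assembly, whereas arrested cells often invest in lysosomes and secreted proteins.

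Deposited signals were linear intensities that had been scaled to a common trimmed mean on each array, so a change in total mRNA per cell is not visible, and fewer cells of a type and less RNA per cell cannot be told apart in such bulk samples. Median signals of the 8 arrays lay between 138 and 154.3 units. On the log2(signal + 21.9) scale used for all tests, the 2 arrays of 0 h correlated with r = 0.9858 across probe sets and the 2 of 24 h with r = 0.9851, against 0.9679 to 0.9686 between 0 h and 24 h arrays. Probe sets share arrays and are not independent replicates, so these values are descriptions.

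The Sertoli label was checked against markers. Of 29 Sertoli identity genes and hormone receptors with a probe set of their own, 13 passed the filter, among them the transcription factors Gata4 (551.8 and 559.7 units at 0 h, 596.5 and 574.4 at 24 h), Nr5a1 (347.5 and 358.2, then 355.5 and 328.9), Wt1 (162.1 and 179.8, then 128.8 and 148.5) and Sox9 (108.8 and 166.7, then 197.7 and 169.3). Other genes of the Sertoli lineage and its hormone response, among them Fshr, Amh, Dmrt1 and the tight junction gene Cldn11, were left out as dim. The summed signal of the 29 genes was 7731 and 7960 units at 0 h and 8938 and 8152 at 24 h. Only Cbx2 and Thra of the 13 were called, both higher (log2 changes of 0.47 and 0.46), and both calls ended when any 1 of the 4 compared arrays was left out; adjusted p reached 0.186 and 0.0849 in the settings that ended them. The adjusted p-values of Gata4, Nr5a1, Wt1 and Sox9 were 0.74, 0.845, 0.34 and 0.202.

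Markers of other testis cells were mostly dim, but so were 16 of the 29 Sertoli identity genes. Of 22 germ cell genes 21 were left out, including Ddx4 and Prm1; 15 of 19 macrophage and blood genes, including Ptprc and Adgre1; 15 of 18 endothelial genes, including Pecam1 and Kdr; and 7 of 12 peritubular myoid genes, including Myh11 and Tagln. Summed signals at 0 h and 24 h were 756.9 and 901.1 against 1725 and 1750 units for the germ cell list, whose 1 tested gene was the receptor Kit described below. They were 849.6 and 1012 against 1033 and 1061 units for macrophages and blood, 701.3 and 829.3 against 887.8 and 950.4 for endothelium, and 7462 and 7685 against 7806 and 8041 for myoid cells. The myoid list thus had a share left out and a summed signal close to those of the Sertoli identity list. None of the 3 tested endothelial genes was called. In the other lists 1 gene each was called, higher: Cd68, which is also a lysosomal gene (log2 change 0.59), and the kinase gene Mylk (0.74). The call of Cd68 ended in 6 of 19 other settings, among them without 0 h replicate 1 or either 24 h array, and that of Mylk in 5, among them without any 1 of the 4 arrays (adjusted p up to 0.221 and 0.136).

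The state after 24 h differed from the start across much of the array. Of 13576 probe sets 4472 were called (32.9%) at an adjusted p below 0.05 (limma's moderated test, 2-sided, Benjamini-Hochberg), 2326 higher and 2146 lower at 24 h. Among them 502 were at least 2-fold higher and 237 at least 2-fold lower. Represented by its brightest probe set, 1430 of 7707 named genes were called higher (18.6%) and 1282 lower (16.6%), and the median log2 change of all 7707 was 0.02. The smallest log2 change called was 0.24. Every log2 change below is 24 h minus 0 h with the standard error of the fit after ±, and a fold is 2 to its power, which understates changes of dim genes. Values of single arrays are signals in deposited units, replicate 1 first. Called genes were picked by these same arrays, so a gap between their groups is a description and adds no support to a call. Means at 6 h and 12 h, of 2 arrays each, are given as description only.

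The total count leaned on each array: it was 2595 and 2697 when 0 h replicate 1 or 2 was left out, and 2790 and 2678 when 24 h replicate 1 or 2 was. Scaling moved the split of calls. Centring each array on its median shifted the median log2 change by -0.10 and gave 1721 higher and 2865 lower probe sets, 37.5% higher in place of 52.0%. Quantile normalization gave 2145 and 2314, or 48.1% higher. List counts below are read against the 18.6% and 16.6% of all named genes, with the medians beside 0.02. Those shares belong to the main fit alone. No share of all named genes is given for the other settings, so list counts in them cannot be read against these percentages. A smaller list count without a 0 h or 24 h array goes with fewer calls across the whole array.

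**Figure D1:**
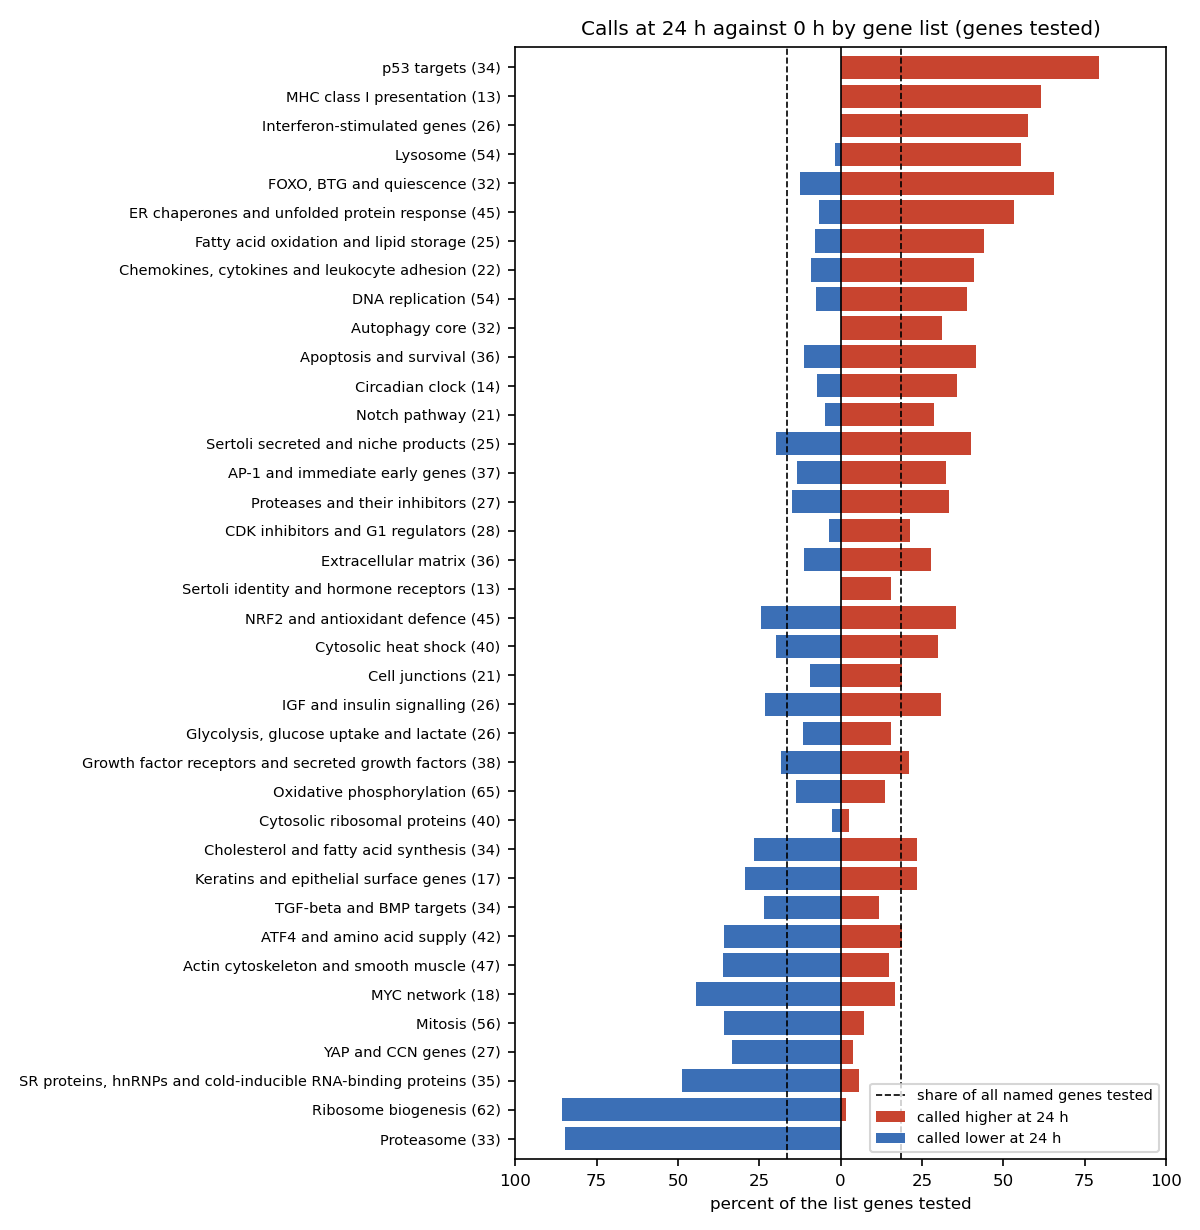
Percent of the tested genes of each list called higher (bars to the right) or lower (bars to the left) at 24 h against 0 h, for the lists with at least 13 tested genes; the number tested stands in parentheses and dashed lines mark the 18.6% higher and 16.6% lower of all named genes. Ribosome biogenesis (85.5% lower) and the proteasome (84.8% lower) stand at the bottom and p53 targets (79.4% higher) at the top.

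The 14 largest rises spanned growth control, proteolysis, lipid handling and surface signalling. Pnrc1, a nuclear receptor coactivator, read 654.7 and 641.4 units at 0 h and 5428 and 4863 at 24 h, a log2 change of 2.95 ± 0.10 (7.7-fold, adjusted p = 1.49e-08). Ddit4, an inhibitor of the growth kinase complex mTORC1, read 342.6 and 418.6, then 3031 and 3187 (2.97 ± 0.12, adjusted p = 7.3e-08). Ephx1, the microsomal epoxide hydrolase of detoxification, went from 1265 and 1161 to 9429 and 9227 units (2.92 ± 0.09). For each of these genes every 24 h array lay above both 0 h arrays, and the same held for all 14. That largely follows from their choice as large called rises.

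Enzymes and a receptor were among the other large rises. The receptor gene Notch1 read 155.0 and 193.1 units at the start and 1579 and 1380 after a day (2.94 ± 0.17), and its probe sets gave between 1.97 and 2.94. Lpin1, a phosphatidate phosphatase of triglyceride synthesis, read 105.6 and 93.7, then 791.1 and 760.7 (2.72 ± 0.14). Sulf2, which removes sulphate groups from extracellular heparan sulphate, read 181.5 and 248.4, then 1467 and 1816 (2.82 ± 0.16). Dglucy, a D-glutamate cyclase, read 123.7 and 120.6, then 1135 and 1022 (2.93 ± 0.23). Mmp10 and Mmp13 are secreted metalloproteinases. Mmp10 read 60.1 and 76.7 units at 0 h and 724.9 and 743.8 at 24 h (3.07 ± 0.17), and Mmp13 113.8 and 101.5, then 789.7 and 819.5 (2.67 ± 0.15). The remaining 5 were Trp53inp1 (3.63 ± 0.10), Krt13 (3.41 ± 0.24), Cdkn1a (3.27 ± 0.09), Cxcl15 (3.06 ± 0.23) and Ccng1 (2.67 ± 0.09). Krt13 and Cxcl15 were dim at 0 h, between 27.9 and 50.1 units on the 4 readings, near the offset of 21.9, so their folds depend on it most.

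The 14 largest falls were smaller in size. Ccn2, a matricellular protein gene, fell most, from 2608 and 2587 units to 442.0 and 477.5 (-2.44 ± 0.10, adjusted p = 7.3e-08). The linker histone H1f2 read 1444 and 1411, then 246.9 and 294.3 (-2.31 ± 0.14), and Slc7a5, the light chain of a transporter of large neutral amino acids, 580.1 and 595.1, then 133.8 and 125.2 (-2.01 ± 0.16). In all 14 genes both 24 h arrays lay below both 0 h arrays, which again largely follows from their choice. The cold-inducible RNA-binding protein gene Cirbp fell from 347.2 and 356.5 to 76.0 and 75.2 units (-1.94 ± 0.38, adjusted p = 0.00255). Its means at 6 h and 12 h were 25.4 and 44.8 units, below the 24 h arrays.

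Others among the 14 were Txnrd3, a thioredoxin reductase (-1.96 ± 0.21), Tafa5, a secreted chemokine-like protein (-1.84 ± 0.15), Tnnt2, the cardiac form of troponin T (-1.81 ± 0.21), Tnfrsf21, a death-domain receptor (-1.79 ± 0.18), the nucleolar protein gene Wdr46 (-1.76 ± 0.18), Scel, a precursor of the cornified envelope (-1.67 ± 0.23), and 2410002F23Rik (-1.65 ± 0.15). Eif2s3y, a translation initiation factor subunit encoded on the Y chromosome, read 530.9 and 511.7 units, then 148.3 and 160.8 (-1.62 ± 0.15). The fatty acid carrier Fabp5 read 4735 and 4790, then 1603 and 1654 (-1.54 ± 0.09), and the metalloproteinase inhibitor Timp1 3071 and 2909, then 1095 and 975.4 (-1.51 ± 0.11). While 2 metalloproteinase genes were among the largest rises, this inhibitor was among the largest falls.

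**Figure D2:**
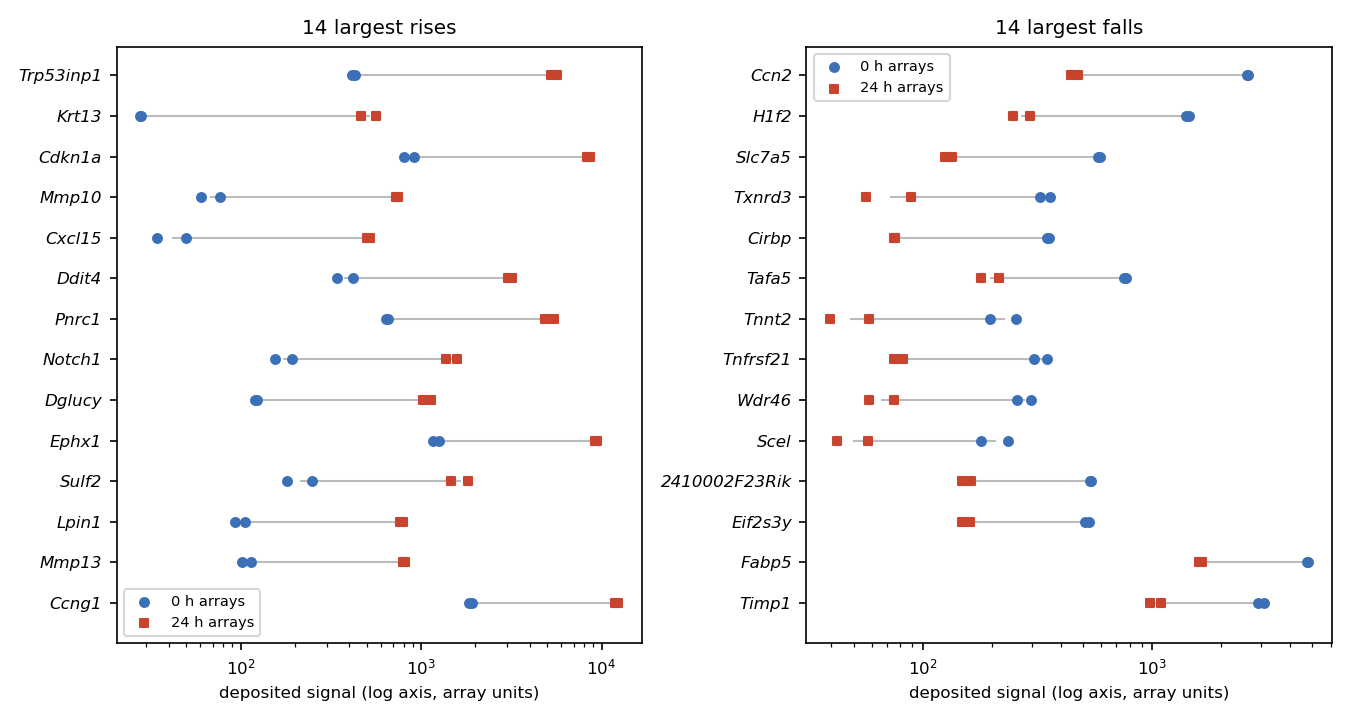
Deposited signal on a log axis of every 0 h array (blue circles) and 24 h array (red squares) for the 14 named genes with the largest rise and the 14 with the largest fall; grey lines join the group means. Groups do not overlap for any of the 28 genes, which largely follows from choosing them by large called changes in these arrays. Krt13 rose from 28.2 and 27.9 to 463.4 and 560.2 units.

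Most genes of p53 signalling and quiescence were called higher, while the cell cycle lists split. Of 34 tested p53 targets 27 were higher and none lower, with a median log2 change of 1.66; the list overlaps the largest rises and was known to move in these data. Beside those, the p53 inhibitor Mdm2 rose from 1231 and 1142 units to 6969 and 6642. Among 32 genes of FOXO, BTG and quiescence programmes 21 were higher (65.6%) and 4 lower, with a median of 0.70; 2 were lower without 0 h replicate 1 or 24 h replicate 2. Btg2 and Btg1, antiproliferative cofactors of mRNA decay, read 414.5 and 335.2, then 1662 and 1627 (2.08 ± 0.14), and 3022 and 3250, then 7799 and 8788 (1.40 ± 0.13). Foxo3, a transcription factor of quiescence, read 313.8 and 500.9, then 1438 and 1615 (1.88 ± 0.27), and Klf9 rose by less (0.62 ± 0.11). The 24 h arrays stood above the 0 h arrays for each of these.

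Among 28 inhibitors of cyclin-dependent kinases and G1 regulators 6 were higher (21.4%) and 1 lower (3.57%), and none was lower without any 1 of the 4 arrays. Besides Cdkn1a these included Rb1, the retinoblastoma protein that T-antigen binds, at 107.3 and 89.8 units and then 419.5 and 468.8 (1.95 ± 0.20, adjusted p = 3.29e-05). Ccng2, an atypical cyclin of arrested cells, rose from 638.2 and 708.6 to 2272 and 2391 (1.76 ± 0.12), its 6 h mean being 686.2. The G1 cyclin gene Ccnd1 also rose, from 2925 and 2930 to 4194 and 4055 (0.49 ± 0.11), and Ccne2 read 419.4 and 372.1, then 659.4 and 865.9 (0.90 ± 0.24). The inhibitor Cdkn1b was called higher (0.40 ± 0.11), but that call ended in 5 of 19 other settings, including without any 1 of the 4 arrays, at adjusted p up to 0.1, and that of Ccne2 ended without 0 h or 24 h replicate 2 (0.0866 and 0.114). Ccnd2 (-0.22), E2f1 (-0.17), Ccne1 (0.06) and Rbl2 (0.31) were not called, with adjusted p from 0.0941 to 0.78.

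Replication and mitosis genes leaned opposite ways. Of 54 DNA replication genes 21 were higher (38.9%) and 4 lower, median 0.21. The licensing factor Cdc6 read 912.2 and 975.2 units, then 1733 and 1802 (0.89 ± 0.13), the mismatch repair gene Msh6 1136 and 1027, then 2143 and 2133 (0.97 ± 0.10), and the replication clamp Pcna 9786 and 9585, then 13309 and 12764 (0.43 ± 0.09). The single-strand binding subunit Rpa3 rose (0.80 ± 0.11), the origin subunit Orc2 fell (-0.94 ± 0.14), and Rrm2, of deoxynucleotide synthesis, was not called (0.01 ± 0.10). Mcm2, a helicase subunit, was called higher at 0.27 ± 0.09, and 9 of 19 other settings ended that call, including without any 1 of the 4 arrays or either 12 h array (adjusted p up to 0.257). The count of higher genes was 12 and 11 without 0 h replicate 1 or 2, and 11 and 14 without 24 h replicate 1 or 2. The lower genes numbered 2 without 0 h or 24 h replicate 2. Median centring gave 14 higher and 6 lower.

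Of 56 mitosis genes 20 were lower (35.7%) and 4 higher, median -0.26. Plk1, the polo kinase of mitotic entry, read 1414 and 1257 units at 0 h and 812.7 and 681.7 at 24 h (-0.82 ± 0.15), and Kif23, a kinesin of cytokinesis, 1021 and 891.9, then 553.2 and 417.2 (-0.96 ± 0.20). Ckap2, a spindle protein that some p53 target lists also hold, rose from 1018 and 1105 to 2574 and 2548 (1.25 ± 0.09), and the kinesin Kifc1 rose as well (0.82 ± 0.17). Cdk1, the mitotic kinase, was not called at 5201 and 5225, then 4731 and 4390 (-0.19 ± 0.10, adjusted p = 0.177). The proliferation marker Mki67 was called lower (-0.35 ± 0.12), but 7 of 19 other settings, including those without any 1 of the 4 arrays, ended the call, at adjusted p up to 0.212. The count of lower genes was 8 and 13 without 0 h replicate 1 or 2, and 10 and 9 without 24 h replicate 1 or 2. It was 12 with no variance trend. In the histone list 4 of 7 genes were lower and 1 higher. Next to H1f2, the linker histone H1f10 fell (-0.79 ± 0.13) and the variant H2ax fell (-0.55 ± 0.10), while H2az2 rose (0.63 ± 0.10).

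The letters TTTGAA, the cell cycle homology region, stood on either strand of the 300-base promoter (250 bases before to 50 after the start, RefSeq, GRCm38.p6) of 33 of 48 mitosis genes found in the promoter table (68.8%), and of 13.7% of the 6337 tested genes found there. Of those 33 genes 13 were called lower and 3 higher, beside 20 lower (35.7%) and 4 higher of all 56 tested mitosis genes. A match is a description and not a site of binding, here and below.

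**Figure D3:**
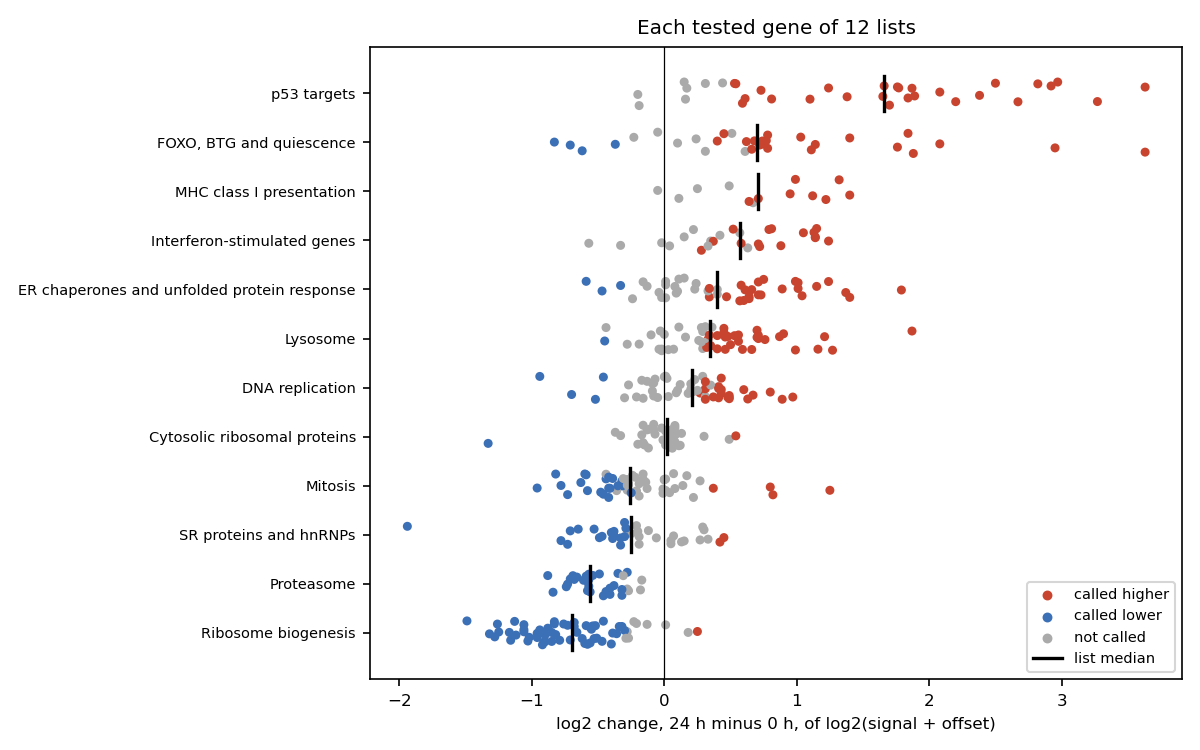
Log2 change at 24 h against 0 h of every tested gene of 12 lists, coloured by call, with a black bar at the list median; points are spread vertically for display only. Nearly all ribosome biogenesis genes (median -0.69) and proteasome genes (median -0.56) lie left of 0, while cytosolic ribosomal proteins (median 0.02) lie around it.

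Most genes of ribosome assembly were lower. Of 62 ribosome biogenesis genes 53 were called lower (85.5%), 1 higher and 8 not called, with a median log2 change of -0.69, and 14 fell at least 2-fold. Those lower ranged from -0.30 to -1.49. Without single arrays of the 4 the count of lower genes stayed between 41 and 42, and under median centring it was 57, while none was higher in these fits. Of 75 listed genes coding for the ribosomal proteins themselves, only 40 had a probe set of their own. Of these 40, 1 was higher (Rpl14, 0.54 ± 0.13) and 1 lower (Rps25, -1.33 ± 0.10). The other 38 were not called, and the median was 0.02. The lower genes numbered 2 without 24 h replicate 2 and under median centring. The call of Rpl14 ended without 0 h replicate 2 or 24 h replicate 1 (adjusted p 0.077 and 0.0904).

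The falls reached several steps of assembly. Ncl, nucleolin, a main nucleolar protein, read 10058 and 9356 units at 0 h and 4180 and 4425 at 24 h (-1.17 ± 0.09, adjusted p = 5.07e-06), and its 4 probe sets were all called lower. Polr1b, the second largest subunit of the RNA polymerase that makes rRNA, read 440.4 and 490.7, then 180.3 and 181.2 (-1.26 ± 0.15). Fbl, the methyltransferase of small nucleolar particles, read 4561 and 4426, then 2860 and 2168 (-0.85 ± 0.12). Both 24 h arrays lay below both 0 h arrays for each. Rrp9, of small subunit processing, showed the largest fall of the list, from 592.7 and 559.2 to 196.5 and 184.5 (-1.49 ± 0.15), followed by Wdr43 (-1.32 ± 0.13) and the large subunit factor Wdr12 (-1.28 ± 0.16), whose other probe set gave 0.07. Npm1, nucleophosmin, was not called at 11892 and 12003, then 10249 and 10057 (-0.23 ± 0.10, adjusted p = 0.0818). At the times between, Ncl had means of 8664 and 5718 units at 6 h and 12 h, and Rrp9 of 635.2 and 323.2.

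MYC, a transcription factor that drives growth genes, was lower. Myc read 1278 and 1112 units, then 776.5 and 633.9 (-0.75 ± 0.13, adjusted p = 0.00105). Of the repressors in the MYC network, Mxd4 rose from 234.7 and 217.9 to 956.0 and 860.8 (1.91 ± 0.12) and Mxi1 from 544.3 and 583.8 to 928.1 and 962.8 (0.72 ± 0.11). For all 3 the groups did not overlap. The other repressors tested, Mnt (-0.06), Mxd3 (-0.41) and Mga (-0.02), were not called. Of 18 tested network genes 8 were lower (44.4%) and 3 higher, among the lower ones the polyamine enzymes Odc1 (-0.80 ± 0.09) and Srm (-0.95 ± 0.09) and the pyrimidine enzyme Cad (-0.80 ± 0.11).

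The E-box CACGTG, which MYC and the lysosomal regulator TFEB can both bind, stood in the promoter of 14 of 54 ribosome biogenesis genes found in the table (25.9%), 12 of them lower, and of 17 of 45 lysosomal genes (37.8%), 13 of them higher and none lower. It stood in 12.7% of all 6337. For comparison, 85.5% of all tested ribosome biogenesis genes were lower, and 55.6% of all tested lysosomal genes higher. The letters read the same on both strands, and they can share bases with the end of the ER stress element below. The 250 bases before the start are shown for 2 genes that fell and 2 that rose, chosen after their values were seen, to set side by side promoters that share the motif, which is in capitals. They are Nop2, an rRNA methyltransferase (log2 change -0.82; chr6:125131633-125131882, plus strand), Nmd3, an export adapter of the large subunit (-0.66; chr3:69721805-69722054, plus strand), the lysosomal peptidase Dpp7 (1.87; chr2:25356333-25356582, minus strand) and the lysosomal protease cathepsin D, Ctsd (0.99; chr7:142387828-142388077, minus strand), from RefSeq on GRCm38.p6, written 5′ to 3′ along the gene.
Nop2: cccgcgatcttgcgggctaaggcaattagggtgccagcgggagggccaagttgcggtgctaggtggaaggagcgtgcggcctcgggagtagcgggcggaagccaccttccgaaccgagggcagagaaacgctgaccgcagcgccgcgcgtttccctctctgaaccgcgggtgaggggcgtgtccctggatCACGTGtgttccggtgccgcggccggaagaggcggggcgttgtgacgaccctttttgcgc
Nmd3: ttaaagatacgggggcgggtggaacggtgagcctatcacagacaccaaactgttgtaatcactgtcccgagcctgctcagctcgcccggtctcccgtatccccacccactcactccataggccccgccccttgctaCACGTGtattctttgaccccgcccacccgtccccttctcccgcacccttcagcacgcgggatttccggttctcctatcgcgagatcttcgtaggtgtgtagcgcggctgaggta
Dpp7: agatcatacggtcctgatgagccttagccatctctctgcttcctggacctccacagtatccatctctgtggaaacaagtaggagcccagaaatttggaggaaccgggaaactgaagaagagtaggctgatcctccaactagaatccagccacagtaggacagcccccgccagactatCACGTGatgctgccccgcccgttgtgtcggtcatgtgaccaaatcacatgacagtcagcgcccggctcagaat
Ctsd: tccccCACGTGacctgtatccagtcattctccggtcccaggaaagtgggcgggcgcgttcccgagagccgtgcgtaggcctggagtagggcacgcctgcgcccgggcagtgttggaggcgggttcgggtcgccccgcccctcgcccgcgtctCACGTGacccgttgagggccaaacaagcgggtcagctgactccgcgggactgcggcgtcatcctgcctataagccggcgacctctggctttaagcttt

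Most proteasome genes were lower. Of 33 tested genes 28 were called lower (84.8%) and 5 were not called, with a median of -0.56 and a range of -0.28 to -0.88 among those called, so none fell 2-fold. Psmd3, a subunit of the regulatory lid, read 2638 and 2688 units at 0 h and 1472 and 1407 at 24 h (-0.88 ± 0.09, adjusted p = 4.82e-05). Psmb2 and Psmb3, of the core particle, read 3802 and 4047, then 2310 and 2051 (-0.84 ± 0.11), and 6718 and 6545, then 4281 and 3695 (-0.73 ± 0.11). Psmd8, another lid subunit, read 8666 and 8619, then 5591 and 4793 (-0.74 ± 0.11). In each the groups were apart. Levels of Psmb3 were still at a mean of 6527 units at 6 h, whereas Psmd8 was at 5497. Leaving out single arrays of the 4 left between 20 and 23 lower, and median centring gave 31. The core letters TGACNNNGC of the antioxidant response element, a motif added after the values were seen, stood in 5 of 27 proteasome promoters (18.5%) and in 17.0% of all.

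Of 35 SR proteins, hnRNPs and cold-inducible RNA-binding proteins, which steer splicing and mRNA fate, 17 were lower (48.6%) and 2 higher, median -0.25. Hnrnpd, which binds AU-rich mRNAs, read 1854 and 1965 units, then 1117 and 1093 (-0.78 ± 0.11), and the splicing factor Srsf5 3539 and 4049, then 2227 and 2580 (-0.65 ± 0.12). Both were lower still at 6 h, with means of 582.8 and 873.3 units. Srsf6 fell by 0.71 ± 0.10 on the log2 scale, although another of its probe sets gave 0.03, and Srsf2 by 0.73 ± 0.20, a call that ended without either 0 h array or without 24 h replicate 1 (adjusted p up to 0.118). The count of lower genes was 6 and 8 without 0 h replicate 1 or 2, and 9 and 6 without 24 h replicate 1 or 2. It was 11 with no variance trend, and 1 gene was higher without 0 h replicate 2 or either 24 h array.

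Many genes of the endoplasmic reticulum (ER) were higher at 24 h. Of 45 genes of ER folding and the unfolded protein response 24 were higher (53.3%) and 3 lower, median 0.40, with 8 at least 2-fold up. The lower genes numbered 1 and 0 without 0 h replicate 1 or 2, and 0 and 2 without 24 h replicate 1 or 2. Hspa5, the main ER chaperone BiP, read 5781 and 6357 units, then 9217 and 10762 (0.71 ± 0.12), and Hsp90b1, the ER form of the Hsp90 family, 3454 and 3404, then 7947 and 8282 (1.24 ± 0.09, adjusted p = 4.65e-06). Sdf2l1, part of an ER chaperone complex, read 451.6 and 505.3, then 1831 and 1593 (1.79 ± 0.11). Disulfide isomerase Pdia4 read 308.4 and 340.4, then 889.8 and 896.4 (1.40 ± 0.20), and the response's transcription factor Xbp1 915.8 and 982.9, then 2385 and 2595 (1.37 ± 0.11). Ddit3, a stress factor that can promote cell death, rose by less, from 612.5 and 613.8 to 1011 and 879.5 (0.60 ± 0.11). All 24 h arrays of these genes exceeded the 0 h arrays. The means of Hspa5 at 6 h and 12 h were 11256 and 11302 units and those of Sdf2l1 1502 and 1504, all above both 0 h arrays.

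The ER stress element, CCAAT and then CCACG after 9 bases of any kind, was added as a motif after the values were seen. It stood in 9 of 37 promoters of the ER list found in the table (24.3%) and in 13 of the 6337 (0.2%), so most tested genes that hold it are list members. Of all 45 tested genes of the list 53.3% were higher. Of the 9 with the element, 8 were called higher, and Derl3 was not called (0.40). Shown in capitals are its letters in the 250 bases before the start of Hspa5 (chr2:34771840-34772089, plus strand), Hsp90b1 (chr10:86705445-86705694, minus strand), which holds it on both strands, and the isomerase Pdia6 (log2 change 1.15; chr12:17266339-17266588, plus strand), chosen after their values were seen to show the element in genes that rose.
Hspa5: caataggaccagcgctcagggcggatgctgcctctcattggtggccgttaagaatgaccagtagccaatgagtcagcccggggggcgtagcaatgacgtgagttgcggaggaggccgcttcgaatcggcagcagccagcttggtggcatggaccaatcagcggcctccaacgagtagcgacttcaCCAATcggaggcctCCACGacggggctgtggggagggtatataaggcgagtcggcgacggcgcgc
Hsp90b1: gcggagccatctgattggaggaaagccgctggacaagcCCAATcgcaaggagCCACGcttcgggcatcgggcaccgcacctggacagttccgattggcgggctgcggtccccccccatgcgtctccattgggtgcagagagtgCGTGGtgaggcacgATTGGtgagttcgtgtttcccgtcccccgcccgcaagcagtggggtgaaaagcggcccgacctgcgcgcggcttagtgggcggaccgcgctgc
Pdia6: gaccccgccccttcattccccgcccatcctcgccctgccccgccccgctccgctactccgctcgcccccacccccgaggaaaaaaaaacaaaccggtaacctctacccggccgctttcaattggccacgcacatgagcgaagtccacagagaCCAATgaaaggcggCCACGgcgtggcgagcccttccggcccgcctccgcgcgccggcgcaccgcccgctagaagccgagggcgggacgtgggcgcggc

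The inducible heat shock genes Hspa1b and Hsph1 were above 0 h at 24 h but below their 6 h means. Hspa1b, the inducible Hsp70, read 1322 and 1414 units at 0 h and 2709 and 2849 at 24 h (1.01 ± 0.15), after means of 11947 and 4204 at 6 h and 12 h. Hsph1, its nucleotide exchange factor, read 971.7 and 951.7, then 2501 and 2371 (1.32 ± 0.10), with a 6 h mean of 8600. Small heat shock protein Cryab rose from 1222 and 1269 to 2630 and 2671 (1.08 ± 0.11) and was at 2650 at 12 h. The co-chaperones Dnajb2 (1.15 ± 0.15) and Dnajb9 (1.04 ± 0.15), of which the latter works in the ER, rose too. Hsp90aa1 (0.08 ± 0.10), Hspa8 (0.12 ± 0.16) and Hspb1 (0.37 ± 0.25) were not called, with adjusted p of 0.604, 0.616 and 0.302. In all, 12 of 40 genes were higher and 8 lower, median 0.10; without each of the 4 arrays in turn the lower ones numbered 4, 4, 5 and 5, for 0 h replicates 1 and 2 and 24 h replicates 1 and 2. Hspa1b has a near-identical neighbour, Hspa1a, so their signals cannot be told apart. The heat shock element, searched as GAA, TTC and GAA with 2 bases of any kind between each, stood in 5 of 36 promoters of the list (13.9%) and in 0.6% of all, with 2 of the 5 genes higher.

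**Figure D4:**
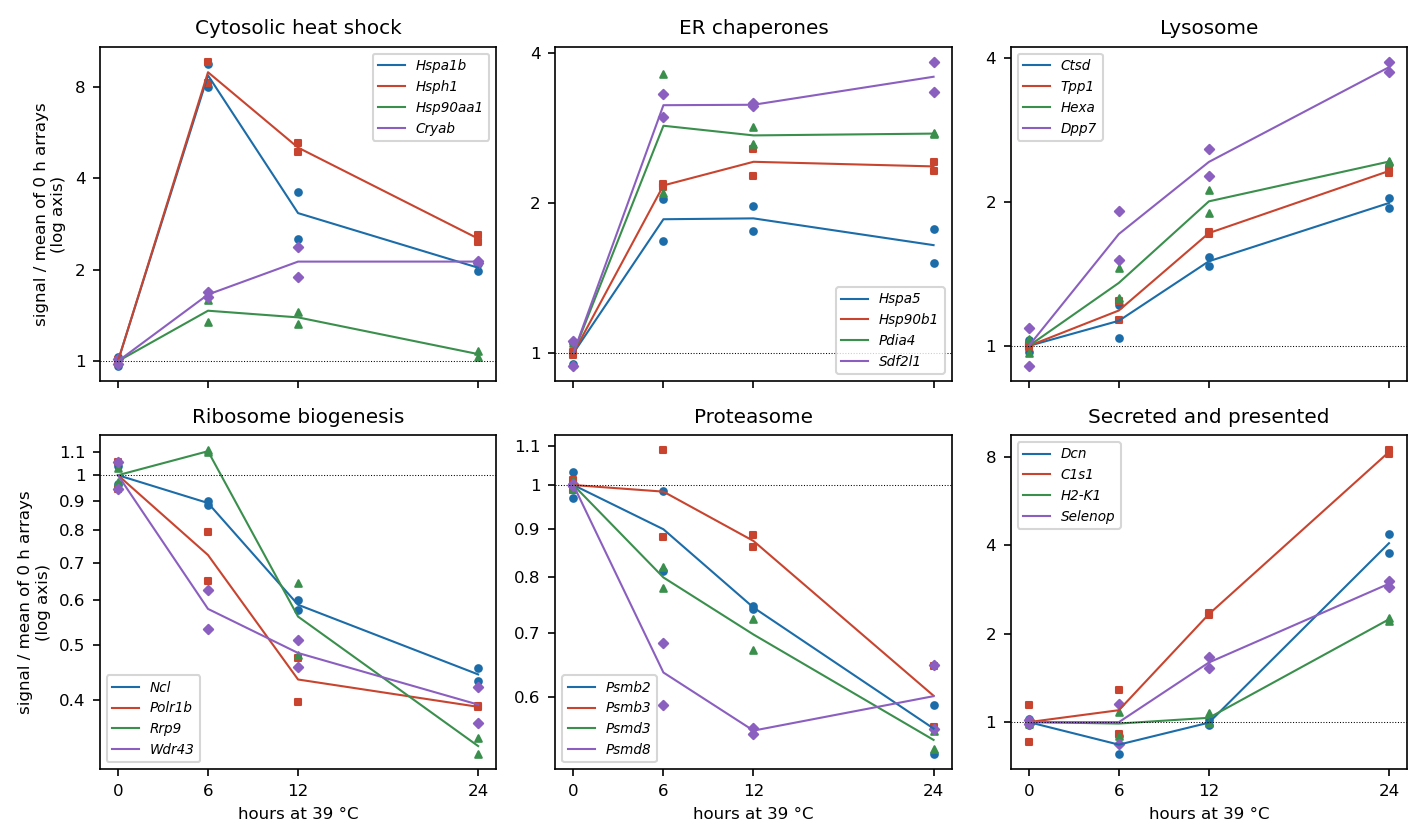
Signal at 0, 6, 12 and 24 h at 39 °C divided by the mean of the 0 h arrays, on a log axis, for genes of 6 groups; points are single arrays and lines join the means of 2 arrays. Hspa1b and Hsph1 peak at 6 h, the ER chaperones hold their level to 24 h, the lysosomal genes climb throughout, and Dcn, at a mean of 1435 units at 12 h, is high only at 24 h (6274 and 5423 units).

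Amino acid supply genes leaned lower, although they share stress factors with the ER response. Of 42 genes of ATF4 and amino acid supply 15 were lower (35.7%) and 8 higher, median -0.22. Asns, asparagine synthetase, read 1294 and 1258 units, then 623.5 and 594.9 (-1.04 ± 0.11), after a 6 h mean of 1794. The transporter Slc1a4 rose from 157.7 and 139.0 to 390.2 and 490.2 (1.43 ± 0.20), the stress protein Nupr1 from 198.5 and 171.2 to 543.1 and 492.2 (1.39 ± 0.18), and Sesn2, a leucine sensor, from 142.4 and 123.3 to 386.3 and 372.0 (1.38 ± 0.28). Atf4 itself was called lower (-0.33 ± 0.09), a call that ended in 4 of 19 other settings, among them without 0 h replicate 1 or either 24 h array (adjusted p up to 0.189), and the pseudokinase Trib3 was not called (0.11 ± 0.19). Without 0 h replicate 2 or 24 h replicate 1 the count of lower genes was 9. The ATF4 element TGATGNAAT stood in 4 of 32 promoters of the list (12.5%) and 0.4% of all, 2 of them of genes that fell and 1 of a gene that rose.

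Many lysosomal genes were higher, mostly by less than 2-fold. Of 54 genes 30 were called higher (55.6%) and 1 lower, median 0.34, and 4 rose at least 2-fold. Ctsd, cathepsin D, read 2698 and 2868 units at 0 h and 5410 and 5670 at 24 h (0.99 ± 0.10, adjusted p = 3.48e-05). Dpp7 read 338.2 and 281.8, then 1158 and 1216 (1.87 ± 0.14), and Hexa, a hexosaminidase subunit, 1120 and 1203, then 2814 and 2831 (1.27 ± 0.11). The peptidase Tpp1 read 2440 and 2426, then 5707 and 5594 (1.21 ± 0.09), and the iduronidase Idua rose by 1.16 ± 0.23. No 24 h array overlapped the 0 h arrays in these. Means of Ctsd at 6 h and 12 h were 3141 and 4184 units, between those of 0 h and 24 h.

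Ctsl, cathepsin L, was not called at 6491 and 6494, then 6281 and 6444 units (-0.03 ± 0.09), nor was the regulator Tfeb (-0.02 ± 0.38), a dim gene at 143.6 and 120.8, then 152.8 and 109.6. The membrane protein Lamp1 was called higher (0.33 ± 0.09), and 5 of 19 other settings ended that call, including median centring and those without either 0 h array or 24 h replicate 1 (adjusted p up to 0.145). The count of higher lysosomal genes was 16 and 22 without 0 h replicate 1 or 2, 19 and 18 without 24 h replicate 1 or 2, and 20 under median centring. None was lower without 0 h or 24 h replicate 1, and 3 were under median centring.

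Of 32 core autophagy genes 10 were higher (31.2%) and none lower, median 0.15. Gabarap, which lines autophagosome membranes, read 5411 and 5347 units, then 9138 and 8966 (0.75 ± 0.10), and the cargo receptor Nbr1 1494 and 1546, then 2986 and 3112 (0.99 ± 0.10). Atg14 (0.91 ± 0.18) and Atg101 (0.74 ± 0.13), of the complexes that start autophagosomes, Gabarapl1 (0.70 ± 0.10) and Map1lc3b (0.55 ± 0.10) rose too. The receptor Sqstm1 was called at 0.35 ± 0.10, a call that ended in 6 of 19 other settings, among them without any 1 of the 4 arrays (adjusted p up to 0.128).

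Genes of fatty acid oxidation and lipid storage held many higher calls. Of 25 tested 11 were higher (44%) and 2 lower, median 0.29. Plin2, which coats lipid droplets, read 1228 and 1322 units, then 3042 and 3043 (1.24 ± 0.10), Cpt1a, the gate of mitochondrial fatty acid uptake, 853.0 and 835.9, then 1882 and 1905 (1.14 ± 0.12), and Angptl4, an inhibitor of lipoprotein lipase, 129.3 and 149.1, then 463.1 and 408.7 (1.51 ± 0.15). Each lay higher on both 24 h arrays. The higher genes numbered 7 without either 0 h array or 24 h replicate 1, and 1 was lower without 0 h or 24 h replicate 2. Synthesis of cholesterol and fatty acids was split, with 8 of 34 genes higher and 9 lower. The cholesterol exporter Abca1 rose from 277.0 and 165.9 to 571.6 and 605.2 (1.36 ± 0.20), and malic enzyme Me1 (0.94 ± 0.09) and the desaturase Fads2 (0.85 ± 0.11) rose, whereas Sqle, squalene epoxidase, fell from 2653 and 2742 to 1366 and 1535 (-0.89 ± 0.10) and fatty acid synthase Fasn from 2590 and 2623 to 1923 and 1921 (-0.44 ± 0.09). Hmgcs1 was called lower at -0.27 ± 0.09, and 8 of 19 other settings ended the call, among them without any 1 of the 4 arrays or either 12 h array (adjusted p up to 0.237). Srebf1, a regulator of this synthesis, was not called (0.09 ± 0.11). The lower genes numbered 5, 3, 6 and 4 without 0 h replicates 1 and 2 and 24 h replicates 1 and 2.

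Counts of energy metabolism genes moved with the setting. In glycolysis, glucose uptake and lactate 4 of 26 genes were higher and 3 lower, median 0.05. Pfkl, a phosphofructokinase, rose from 561.8 and 581.0 to 1234 and 1206 units (1.07 ± 0.11). Ldha, which makes the lactate that Sertoli cells pass to germ cells, was not called (-0.09 ± 0.11), nor were Hk2 (-0.02 ± 0.11) and the glucose transporter Slc2a1 (0.31 ± 0.12, adjusted p = 0.0675). Slc2a8 (0.57 ± 0.18), Dlat (-0.55 ± 0.13), Pfkp (-0.53 ± 0.17) and Pgk1 (-0.41 ± 0.12) were called, and each call ended when single arrays were left out: any 1 of the 4 for Slc2a8 and Pfkp, 0 h replicate 1 or 24 h replicate 2 for Dlat, and either 0 h array or 24 h replicate 2 for Pgk1 (adjusted p up to 0.211, 0.217, 0.0915 and 0.206). Higher genes of the list numbered 1, 1, 1 and 2, and lower ones 0, 1, 2 and 0, without 0 h replicates 1 and 2 and 24 h replicates 1 and 2. In oxidative phosphorylation 9 of 65 genes were higher and 9 lower, median 0.03, among them Ndufb2 (0.71 ± 0.09), Atp5e (0.65 ± 0.10), Cyc1 (-0.49 ± 0.10) and Ndufb8 (-0.53 ± 0.15). Its counts leaned on scaling and arrays: 4 higher and 13 lower under median centring, 15 and 8 under quantile normalization, 20 and 16 in the fit of the 0 h and 24 h arrays alone, 4 and 5 with no variance trend, and 3 to 6 of either kind without single arrays of the 4. The call of Ndufb8 ended in 4 of 19 other settings, among them without either 0 h array or 24 h replicate 2 (adjusted p up to 0.163).

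Genes of the interferon response and of antigen presentation were called higher or not called. Of 26 tested interferon-stimulated genes 15 were higher (57.7%), median 0.57; the other 16 on the array, Ifit1 among them (41.5 and 45.8, then 38.2 and 54.9 units), were left out as dim. Ifitm3, a membrane protein that blocks virus entry, read 1104 and 1072 units, then 2601 and 2606 (1.24 ± 0.11), and Ifih1, a sensor of double-stranded RNA, 106.8 and 112.1, then 270.4 on both arrays (1.15 ± 0.23). The GTPase Igtp (1.14 ± 0.19) and Ifi35 (1.14 ± 0.12) rose alike. Without 24 h replicate 1 the count was 9.

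Of 13 genes of MHC class I presentation 8 were higher (61.5%), median 0.71, although 3 of the 8, Pdia3, Canx and Calr, are ER chaperones counted above. B2m, the light chain of class I molecules, read 4415 and 3592 units, then 8066 and 7334 (0.95 ± 0.12). The peptide transporter genes Tap1 and Tap2 read 72.0 and 75.1, then 254.3 and 207.8 (1.40 ± 0.19), and 112.5 and 116.9, then 295.2 and 342.8 (1.32 ± 0.18), and Tapbp, which loads peptide, 1143 and 1077, then 2652 and 2567 (1.22 ± 0.10). The groups did not overlap in these. The heavy chain H2-K1 rose from 417.8 and 403.0 to 930.1 and 906.3 (1.12 ± 0.13), with another of its 3 probe sets at -0.38, and H2-D1 was not called (0.11 ± 0.14). Probe sets of these near-identical heavy chains can share target RNA, so their split is uncertain. The 12 h mean of H2-K1 was 424.5 units, at the level of 0 h.

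Secreted immune factors were called in part. Among 22 tested chemokine, cytokine and leukocyte adhesion genes 9 were higher (40.9%) and 2 lower, while 25 more were left out as dim, including Il6, Cxcl1 and Icam1. Vcam1, an adhesion molecule for leukocytes, read 168.4 and 156.3 units, then 824.7 and 953.5 (2.30 ± 0.13, adjusted p = 1.06e-06), and its 3 probe sets were all called. Tnfsf9 rose (0.90 ± 0.17). Cxcl12, a chemokine of stromal cells, read 2029 and 1933, then 3099 and 3100 (0.64 ± 0.11), but its other probe set was called the opposite way (-0.43), so its direction is uncertain. Ccl2 (0.68 ± 0.16) and Ccl7 (-0.82 ± 0.21), chemokines for monocytes, moved in opposite directions; the first call ended without 0 h replicate 2 or 24 h replicate 1 and the second without either 0 h array or 24 h replicate 2 (adjusted p up to 0.0684 and 0.0894). None of the list was lower without either 0 h array or 24 h replicate 2. Of 7 tested complement and acute phase genes 4 were higher and 1, C1qbp, lower (-0.48). C1qbp was not called lower without either 0 h array or 24 h replicate 2. Another 28 of 35 on the array were left out as dim, and with no filter the list median was 0.03 in place of 0.82. The higher genes Cp and Clu are counted again among Sertoli products below. C1s1, a complement protease, read 48.5 and 65.0, then 476.7 and 464.8 (2.65 ± 0.21), and its partner C1ra 203.6 and 171.7, then 354.7 and 340.4 (0.82 ± 0.17). At 0 h C1s1 lay under the filter threshold, so it passed only through its later values. The same held for other genes of the text, among them Krt13, Cxcl15, Mmp10, Notch3, Gjb2 and Pmaip1. The filter thus favoured higher calls among genes dim at 0 h.

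Genes listed as secreted and niche products of Sertoli cells were mixed. The list also holds genes of proteins that are not secreted, such as Vim, Etv5 and Bsg. Of 25 tested genes 10 were higher (40%) and 5 lower, median 0.22. Cp, the copper carrier ceruloplasmin, read 259.3 and 743.7 units at 0 h, an uneven pair, and 1742 and 1726 at 24 h (1.92 ± 0.32, adjusted p = 0.00106). Clu, clusterin, read 1395 and 1337, then 4205 and 3323 (1.44 ± 0.15), and the growth factor Tgfa 113.9 and 135.7, then 318.9 and 366.3 (1.31 ± 0.17). Inhba and Inhbb, subunits of activins and inhibins, were called in opposite directions, at 175.1 and 142.4, then 50.7 and 89.2 units for Inhba, and at 175.8 and 208.4, then 275.9 and 286.5 for Inhbb (0.51 ± 0.14), yet the first call ended without 0 h replicate 1 or 24 h replicate 1 and the second without 0 h replicate 1 or either 24 h array (adjusted p up to 0.123 and 0.151). Kitl, the stem cell factor, was not called (0.22 ± 0.14), and Gdnf, Jag1 and Tgfb2 were dim. Higher genes numbered 6, 7, 5 and 8, and lower ones 3, 4, 3 and 5, without 0 h replicates 1 and 2 and 24 h replicates 1 and 2.

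Signalling receptors were called beside them. Kit, the receptor of Kitl and a germ and Leydig cell marker, read 252.7 and 348.8 units at 0 h and 1225 and 1222 at 24 h (1.96 ± 0.17, adjusted p = 1.36e-05), with 6 h and 12 h means of 265.9 and 507.9; both its probe sets were called. In the Notch pathway 6 of 21 genes were higher and 1 lower; none was lower without any 1 of the 4 arrays, and 3 were under either other scaling. Notch3 read 27.0 and 71.2, then 154.0 and 169.7 (1.44 ± 0.29), and the Hes family genes Hes6 and Hes1 311.3 and 318.1, then 659.0 and 688.4 (1.05 ± 0.14), and 252.1 and 236.9, then 424.3 and 360.4 (0.63 ± 0.14). Heyl, of the same list, was not called (0.05). The call of Hes1 ended without 24 h replicate 1 (adjusted p = 0.0643), where 4 genes of the list were higher, and the ligand Jag1 and the target Hey1 were dim. Of 11 retinoid genes 2 were higher and 1 lower. Dhrs3, which turns retinal back to retinol, read 123.7 and 231.0, then 1148 and 1086 (2.57 ± 0.25), and Aldh1a1, which makes retinoic acid, was not called at 8028 and 7887, then 8501 and 8484 (0.09 ± 0.09). The calls of Rdh10 (0.53 ± 0.16) and Rdh11 (-0.61 ± 0.15) ended without any 1 of the 4 arrays and without 0 h replicate 2 or 24 h replicate 1 (adjusted p up to 0.151 and 0.0864), and 1 gene of the list was higher without any 1 of the 4.

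Steroid-making genes of Leydig cells were in part above the filter. Of 5 tested genes 3 were higher: Star, which carries cholesterol into mitochondria, at 74.6 and 134.5 units and then 229.9 and 287.2 (1.18 ± 0.24), the mitochondrial protein gene Tspo (0.63 ± 0.09) and Nr4a1 (0.48 ± 0.13), whose call ended without any 1 of the 4 arrays (adjusted p up to 0.111). The defining enzymes Cyp11a1 (7.6 and 4.3, then 6.2 and 8.8 units) and Hsd3b1 (5.2 and 8.4, then 4.9 and 16.4) were left out as dim. Summed signal of the 10 genes on the array was 4650 and 4913 units at 0 h and 6545 and 6591 at 24 h.

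Genes of the growth regulator YAP, its pathway and targets and the CCN family held more lower than higher calls. Of 27 tested 9 were lower (33.3%) and 1 higher, median -0.19, and 5 of the 9 fell at least 2-fold. Ccn1, a matricellular relative of Ccn2, read 3497 and 3161 units, then 1352 and 1323 (-1.30 ± 0.11), Ankrd1, a stretch-responsive nuclear protein gene, 1250 and 1048, then 507.3 and 442.0 (-1.23 ± 0.14), and Wwc1, a brake on YAP, 1756 and 1725, then 790.5 and 722.8 (-1.18 ± 0.15). The 24 h arrays lay below the 0 h arrays in each. Ccn1 was already at means of 1531 and 1171 units at 6 h and 12 h. The receptor kinase gene Axl was called lower (-0.34 ± 0.08), but not without any 1 of the 4 arrays (adjusted p up to 0.073).

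The TEAD letters GGAATG stood on either strand in 12 of 23 promoters of this list found in the table (52.2%), 5 of genes that fell and none of a gene that rose, and in 14.2% of all 6337. Of all 27 tested genes of the list 33.3% were lower. Shown in capitals are the matches in the 250 bases before the start of Ccn1 (chr3:145649986-145650235, minus strand), where they read CATTCC on the strand shown, and of Ankrd1 (chr19:36119845-36120094, minus strand), which holds 2, chosen after their values were seen because both fell. Ccn2 has no entry in the promoter table.
Ccn1: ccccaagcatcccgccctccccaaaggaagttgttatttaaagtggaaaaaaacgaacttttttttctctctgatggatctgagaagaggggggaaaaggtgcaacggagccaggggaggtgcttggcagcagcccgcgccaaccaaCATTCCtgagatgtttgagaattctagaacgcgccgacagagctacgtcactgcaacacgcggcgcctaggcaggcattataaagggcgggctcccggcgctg
Ankrd1: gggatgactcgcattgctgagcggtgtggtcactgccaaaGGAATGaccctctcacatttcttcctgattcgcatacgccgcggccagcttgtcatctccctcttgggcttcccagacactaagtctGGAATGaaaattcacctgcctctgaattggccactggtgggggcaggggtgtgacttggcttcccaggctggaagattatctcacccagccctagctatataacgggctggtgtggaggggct

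Actin cytoskeleton genes leaned lower. Of 47 tested genes 17 were lower (36.2%) and 7 higher, median -0.15. The calponin Cnn2 read 4745 and 4403 units, then 2255 and 2112 (-1.06 ± 0.09), whereas the actin-severing gelsolin Gsn rose from 2882 and 3102 to 5738 and 6354 (1.01 ± 0.09) and the integrin subunit Itgb5 from 1082 and 895.5 to 2044 and 1961 (1.01 ± 0.12). Skeletal actin Acta1 (-1.09 ± 0.30), tropomyosin Tpm1 (-0.30 ± 0.09) and vinculin Vcl (-0.35 ± 0.10) were called lower. Their calls ended without either 0 h array or 24 h replicate 1, without either 0 h array or 24 h replicate 2, and without any 1 of the 4 (adjusted p up to 0.118, 0.235 and 0.139). Smooth muscle actin Acta2 was not called (-0.05 ± 0.26). Lower genes numbered 12, 10, 13 and 12 and higher ones 4, 4, 5 and 3 without 0 h replicates 1 and 2 and 24 h replicates 1 and 2.

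Of 34 genes listed as TGF-beta and BMP targets 8 were lower (23.5%) and 4 higher (11.8%), median -0.01. The list also holds receptors, signalling SMAD genes and ligands of these pathways, such as Tgfbr1, Smad3 and Bmp4. Its counts and median therefore do not stand for target genes alone. Id2, an inhibitor of differentiation factors, and the inhibitory SMAD gene Smad6 read 2777 and 3051, then 1248 and 1445 units (-1.10 ± 0.13), and 824.1 and 687.1, then 426.1 and 309.4 (-1.01 ± 0.16). The ligand Bmp4 (-0.68 ± 0.15), Id1 (-0.53 ± 0.12) and Id3 (-0.36 ± 0.11) were called lower; without 0 h replicate 1 none of the 3 was (adjusted p 0.0605, 0.0625 and 0.141). Other arrays also ended calls, 24 h replicate 2 that of Id1 (0.0507) and any 1 of the 4 that of Id3 (up to 0.211). Tgif1, a repressor, rose (0.69 ± 0.13), and Smad7 was not called (-0.42 ± 0.18, adjusted p = 0.102). Lower genes numbered 2, 4, 5 and 4 and higher ones 3, 2, 2 and 2 without 0 h replicates 1 and 2 and 24 h replicates 1 and 2.

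Extracellular matrix genes changed one by one, with large changes in both directions. Of 36 tested genes 10 were higher (27.8%) and 4 lower, median 0.22. Dcn, the proteoglycan decorin, read 1471 and 1410 units at 0 h and 6274 and 5423 at 24 h (4-fold, adjusted p = 7.72e-07), after means of 1207 and 1435 at 6 h and 12 h. Fn1, fibronectin, fell from 8753 and 8610 to 3496 and 3880 (-1.23 ± 0.09), with means of 7043 and 4788 in between. Tenascin Tnc (1.24 ± 0.19) and the collagen hydroxylase subunit P4ha1 (1.22 ± 0.12) rose. Col1a1 was called higher (0.41 ± 0.13), a call that 6 of 19 other settings ended, among them those without 0 h replicate 2 or either 24 h array (adjusted p up to 0.289), and its other probe set gave -0.53. Col4a1 (0.17 ± 0.09), Lamb1 (-0.47 ± 0.20) and Lox (0.06 ± 0.15) were not called. Among 27 proteases and inhibitors 9 were higher (33.3%) and 4 lower. The protease inhibitor Serpinb9 read 355.5 and 398.6, then 1202 and 1113 (1.56 ± 0.13). Plat, a plasminogen activator that Sertoli cells secrete, was called higher (0.58 ± 0.13), but not without 0 h or 24 h replicate 1 (adjusted p 0.0704 and 0.0786), and Mmp2 (0.06 ± 0.15) and Timp3 (-0.40 ± 0.18) were not called.

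Junction and epithelial genes gave single large changes. Of 21 tested junction genes 4 were higher and 2 lower. Jup, plakoglobin, read 247.9 and 257.3 units, then 621.2 and 548.1 (1.14 ± 0.13), connexin Gjb2 58.0 and 50.9, then 172.2 and 135.0 (1.19 ± 0.24), and F11r, a tight junction adhesion molecule, 2177 and 1964, then 3024 and 3118 (0.57 ± 0.10). N-cadherin, Cdh2, which Sertoli cells use to hold germ cells, fell from 3011 and 2976 to 1726 and 1919 (-0.71 ± 0.11). Tjp1 (-0.13 ± 0.10) and the connexin Gja1 (0.24 ± 0.12) were not called; 1 gene was lower without any 1 of the 4 arrays and 4 were under median centring. Of 17 keratin and epithelial surface genes 4 were higher and 5 lower. Anxa8, an annexin, read 128.7 and 136.5, then 855.2 and 742.8 (2.41 ± 0.15), and the tetraspanin Tspan8 156.5 and 174.4, then 995.9 and 825.2 (2.31 ± 0.15), while the hyaluronan receptor Cd44 fell from 4191 and 4038 to 2082 and 2090 (-0.97 ± 0.10). Krt18 (0.09 ± 0.11), Krt8 (0.11 ± 0.25) and vimentin, Vim (-0.21 ± 0.10), were not called. Krt19, left out as dim over the 8 arrays, was listed at 3.2 on both 0 h arrays and at 159.5 and 106.9 at 24 h.

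Receptors and ligands of growth signalling were split. Of 38 genes 8 were higher and 7 lower, near the share of all genes. Egfr, the receptor of Tgfa and Hbegf, read 364.9 and 324.4 units, then 977.8 and 983.2 (1.45 ± 0.14), although its 5 probe sets ranged from -0.31 to 1.45. Vegfc (1.13 ± 0.31) and Tyro3 (-1.19 ± 0.38) were called; the first call ended without 0 h or 24 h replicate 1 and the second without either 0 h array or 24 h replicate 1 (adjusted p up to 0.118 and 0.252). Vegfa (-0.05 ± 0.18) and Ghr (0.41 ± 0.16) were not called. The higher genes numbered 5 without 24 h replicate 1 and the lower ones 4 without 0 h or 24 h replicate 1. Among 26 genes of insulin-like growth factor signalling 8 were higher and 6 lower. Igf2r, which clears Igf2 and sorts lysosomal enzymes, rose from 1597 and 1404 to 5246 and 4887 (1.74 ± 0.10), and Igfbp2 fell from 1516 and 1467 to 653.4 and 690.3 (-1.13 ± 0.10). Igf1 fell from 90.9 and 107.4 to 32.8 and 47.5 (-0.97 ± 0.24), but not without 0 h replicate 2 or 24 h replicate 1 (0.0725 and 0.073). Irs1 (0.18 ± 0.10), Igf2 (-0.32 ± 0.31) and Igfbp4 (-0.11 ± 0.40) were not called.

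The list of AP-1 and immediate early genes, which also holds ligands and a receptor of growth signalling, showed 12 of 37 higher (32.4%) and 5 lower, median 0.08. The higher ones include Egfr and Tgfa, given above, and Btg2 and Ier5, which are also on the p53 target list. Fos rose from 79.1 and 74.1 units to 183.8 and 181.4 (1.05 ± 0.21), Fosl1, another AP-1 subunit, fell from 517.4 and 473.1 to 235.3 and 233.1 (-1.01 ± 0.14), and the ligand Hbegf rose from 736.2 and 690.4 to 1539 and 1428 (1.03 ± 0.11). Egr1 (0.34 ± 0.13, adjusted p = 0.0702) and Dusp6 (0.20 ± 0.19) were not called. Lower genes numbered 3 without 24 h replicate 2. The CRE letters TGACGTCA stood in 4 of 30 promoters of the list (13.3%) and 3.8% of all, 2 of them of genes that rose.

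Antioxidant genes were called in both directions, 16 of 45 higher (35.6%) and 11 lower. Aox1, an aldehyde oxidase, read 93.7 and 110.4 units, then 463.3 and 475.9 (1.99 ± 0.19), and the selenium carrier Selenop 3900 and 4012, then 11982 and 11408 (1.56 ± 0.13). Glutathione transferase Gstm1 (0.90 ± 0.10), the thioredoxin inhibitor Txnip (0.72 ± 0.12) and metallothionein Mt1 (0.55 ± 0.10) rose. Nqo1, a quinone reductase and marker of NRF2 activity, fell from 603.3 and 537.5 to 274.5 and 310.9 (-0.91 ± 0.20), and Hmox1 was not called (0.19 ± 0.14). Nfe2l2, the gene of NRF2 itself, was called higher (1.35). The glutathione synthesis genes Gclc and Gclm were called in opposite directions (0.82 and -0.54). Lower genes numbered 5, 7, 6 and 4 without 0 h replicates 1 and 2 and 24 h replicates 1 and 2, and 7 with no variance trend.

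Among 36 apoptosis and survival genes 15 were higher (41.7%) and 4 lower, median 0.35. Bbc3 and Pmaip1, death-promoting targets of p53, read 145.3 and 110.8 units, then 562.5 and 488.0 (1.87 ± 0.18), and 57.7 and 30.5, then 203.8 and 193.6 (1.77 ± 0.25). Apaf1, the scaffold of caspase activation, rose from 334.2 and 289.9 to 1028 and 1029 (1.66 ± 0.12), and the receptor Tnfrsf1b rose (1.19 ± 0.15). The survival gene Bcl2l1 was called higher (0.69 ± 0.17), but not without 0 h replicate 1 or 24 h replicate 2 (adjusted p 0.115 and 0.0782), and Mcl1 was not called (0.19 ± 0.11). Lower genes numbered 2 without 0 h replicate 1 or 24 h replicate 2.

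Of 14 circadian clock genes 5 were higher and 1 lower. Dbp, a clock output factor, read 272.6 and 235.0 units, then 506.6 and 502.2 (0.94 ± 0.16), with means of 197.2 and 188.2 at 6 h and 12 h. Bhlhe40 (0.75 ± 0.15) and Arntl (0.69 ± 0.15) rose, and Per1 was not called (-0.21 ± 0.20). The call of Nr1d2 (0.70 ± 0.23) ended without any 1 of the 4 arrays (adjusted p up to 0.199), and 3 genes of the list were higher and none lower without any 1 of them. Of 12 genes used as references 7 were not called, among them Actb (0.02 ± 0.11), Hprt (0.14 ± 0.09) and Tbp (-0.01 ± 0.12). B2m and Gusb were higher and Tfrc (-0.49 ± 0.09), Ywhaz (-0.38 ± 0.09) and Pgk1 lower. The call of Ywhaz ended without either 0 h array or 24 h replicate 2 (adjusted p up to 0.0797), and another of its 7 probe sets was called higher. B2m kept its call in every setting, and 1 reference gene was higher without any 1 of the 4 arrays and under median centring, so the call of Gusb (0.34) ended there. Without either 0 h array or 24 h replicate 2 only 1 was lower.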

How the data were processed

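Each array has 1 column of linear intensity, from 0.1 to 38130.2 over the table, as the authors deposited it, made from total RNA of TTE3 cells by 3' amplification, per the labels' protocols. The software that made them is not given in the sources used here. Their mean after removing 2% at each end was 500.2 on every array, controls included. The number of arrays, 2 per time, limits the precision.

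Of 22626 probe sets left after 64 controls, 20380 had 1 symbol in the platform annotation, 691 several and 1555 none; 20351 symbols were matched by gene identifier to RefSeq (GRCm38.p6). Probe sets with several symbols name no gene here. Values were log2(intensity + 21.9), the offset being their 20th percentile, and probe sets with a mean under the 40th percentile (6.584) were left out, 9050 in all. Because that mean took in all 8 arrays, a gene dim at 0 h could pass through its later values. All 8 arrays entered 1 fit with limma 3.58.1 in R 4.3.3 (eBayes with a variance trend; 4 residual and 7.22 prior degrees of freedom), which was tested on simulated data. P-values were adjusted over the 13576 tested probe sets.

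The text names the 14 largest rises and falls, up to 4 called genes with the largest change of each of 47 gene lists, and key genes of the lists. The comparison, the lists and the key genes were chosen with earlier results of these data known. The 19 other settings changed the offset (7.8, 43.8 or 1), the filter (none, or the 50th percentile), the scaling (quantile or median), the arrays fitted, the variance model and the replicate block, or left out 1 array.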

Additional observations from a re-analysis of the deposited data

How the results depend on the processing

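In these 19 settings the number of called probe sets was between 3803 and 5797 wherever no single array was left out, against 4472. With single arrays left out it ran from 2595 to 5191, the lower values always without a 0 h or a 24 h array, where that group has 1 array and is assumed to vary like the others. Sample numbers are shared between times, but the deviations of same-numbered arrays correlated between 0.0496 and 0.18, not above 0.1 in every pair of times, so the numbers were not taken as pairs; a fit with the replicate block called 4832 probe sets. Calls of single genes are summarised only for the 212 called genes picked for the text, partly for their large changes. Of these, 170 kept their call in every setting that tested them and 42 lost it in at least 1. No value turned its sign. Another offset, robust variance, the replicate block or the fit of the 0 h and 24 h arrays alone ended none of these calls. No filter ended 15, no variance trend 13, median centring 10 and quantile normalization 5. These counts do not stand for all called genes. Dim genes are limited by background, since no detection calls were used here.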
